A study of Mus musculus with 4 samples.

Results

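The tumor suppressor p53 and 9 genes of its core circuit were examined for binding of FOXR2 in a mouse brain tumor line with loss of p53 function. The 10 genes were Trp53, which encodes p53, its regulators Cdkn2a, Mdm2 and Mdm4, and its target genes Cdkn1a, Bax, Bbc3, Pmaip1, Trp53inp1 and Sesn2. They were chosen by name, with earlier results of these data known. They came out of 21938 protein-coding genes on chromosomes 1 to 19, X and Y (GENCODE M21, mm10). Peaks were assigned to a gene over its body and 10 kb of flank at each end.

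p53 is a transcription factor that is held at low levels in unstressed cells and accumulates after DNA damage or oncogene activation, when it switches on genes for cell cycle arrest, apoptosis and metabolic adaptation. Mdm2 marks p53 for degradation, Mdm4 (MDMX) is a relative of Mdm2 that blocks the transactivation domain of p53, and the Arf protein made from Cdkn2a inhibits Mdm2. Mdm2 is itself a target of p53, which closes a negative feedback loop. Loss of this pathway is common in malignant brain tumors, where it removes a barrier to the proliferation of cells carrying an oncogene.

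CUT&RUN tethers a nuclease to an antibody on chromatin, so that DNA near the bound protein is released and sequenced. The antibody was against the V5 tag, and 4 samples were profiled. The group labelled FOXR2 P53LoF (n = 2 replicates) was a neurosphere line derived from a brain tumor made in C57BL/6J mice by in utero electroporation (IUE), with FOXR2 carrying a C-terminal V5 tag under the ubiquitous CAG promoter and a CRISPR/Cas9 guide against Trp53. The V5 control group (n = 2 replicates) came from a separate IUE model in the same strain, with the genotype H3.3G34R and no V5 tag, and its p53 status is not given in the sources used here. Both groups were therefore electroporation-derived mouse cell lines stained with the same antibody, but they differed in oncogene as well as in the tag, so effects of the tagged protein and of the line cannot be told apart from the control lists alone. The methods describe the FOXR2 P53LoF samples as replicates of a line, and no source says whether they were separate cultures, so the spread between them may be technical. No input library is named. The peaks mark tagged FOXR2, not p53.

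The FOXR2 P53LoF peak lists held 31909 and 38580 peaks in replicates 1 and 2, and the V5 control lists held 308 and 124. Each peak carries a fold enrichment, the fragments at its summit plus 1 divided by the library background plus 1. After the filter of the methods (no overlap with a control peak, fold and −log10 q above 6, length below 10000 bp), 13418 and 14864 peaks remained, and stretches covered by peaks of both replicates, called reproducible sites, numbered 11943. Of these, 7807 were promoter sites, at most 1 kb from a protein-coding transcript's start, and 4136 lay farther away. The lower of the 2 replicates' folds, called the lower fold, had a median of 9.72 over promoter sites and 7.95 over the others. The background was 1.26 fragments in replicate 1 and 2.04 in replicate 2, so that a fold above 6 took 13 and 18 fragments. In V5 control replicates 1 and 2 it was 1.69 and 0.642 fragments. Intervals after a fold are exact Poisson 95% intervals of the summit fragments and cover counting error only. Over the Foxr2 gene itself, replicates 1 and 2 of FOXR2 P53LoF had a peak of fold 5.74 and 6.24, and neither control listed one.

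In the FOXR2 P53LoF line, V5 peaks lay at the promoters of most of the 10 genes, with the highest enrichment at a site shared by Trp53 and Wrap53. A reproducible promoter site was present at 8 of the 10 genes (Trp53, Cdkn2a, Mdm2, Mdm4, Cdkn1a, Bax, Bbc3 and Sesn2), against 39.2% of all protein-coding genes. The same 8 genes were those with a reproducible site anywhere in the gene or the 10 kb on either side, against 50.0% of all genes. Trp53inp1 had overlapping promoter peaks of which 1 failed the filter, so that 9 of 10 genes had promoter peaks in both unfiltered lists, against 50.9% of all genes. Pmaip1 was the only gene of the 10 with no peak in either list, a state shared by 30.7% of all genes. No gene of the 10 had a peak in a V5 control list, against 0.556% of all genes with one, and the control peak closest to any of the genes lay 4052 kb away, on the chromosome of Mdm2. No reproducible site was intronic and away from all starts (0 of 10 genes, against 5.76% of all genes). With only the 5′-most start of each gene counted, 3 of 10 genes had such a site (Cdkn2a, Mdm4 and Cdkn1a), against 7.32% of all genes, and 6 of 10 had a promoter site, against 37.2%. A minimum fold of 10 left 4 of 10 genes with a promoter site, against 19.7% of all genes. These shares are descriptions of a list of 10 genes, and no test was made on them. With 2 samples against 2, an exact permutation test over samples cannot give a two-sided p below 0.333.

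The promoter sequences that bear on these sites are shown here 5′ to 3′ on the strand of the gene, from 250 bases before a RefSeq start to 50 bases from it on (GRCm38.p6, the build of mm10). They were chosen as the gene with the highest fold (Trp53), the starts of a single gene that each had a site of its own (Cdkn2a), and the genes with a RefSeq promoter under a site and another with no peak (Mdm4 and Cdkn1a). Capitals mark matches on either strand to any of 5 motifs. The ETS family motif was searched for as CCGGAA. For forkhead proteins, the family that FOXR2 belongs to, GTAAACA was used. Binding elements of Sp family proteins, known as GC boxes, were searched for as GGGCGG. The letters of the E-box, bound by Myc family proteins, were CACGTG. The p53 response element was taken as 2 adjacent decamers of its consensus with at most 1 mismatch, which could not fall on the invariant core bases of either decamer.
Trp53, chr11:69580109-69580408 (+), under a site: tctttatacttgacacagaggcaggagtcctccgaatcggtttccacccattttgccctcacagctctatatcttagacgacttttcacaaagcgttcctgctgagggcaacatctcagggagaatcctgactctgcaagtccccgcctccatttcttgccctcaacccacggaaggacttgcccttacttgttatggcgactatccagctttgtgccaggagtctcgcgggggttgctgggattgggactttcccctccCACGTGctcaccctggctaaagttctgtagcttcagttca
Cdkn2a, p16Ink4a start, chr4:89282143-89282442 (-), under a site: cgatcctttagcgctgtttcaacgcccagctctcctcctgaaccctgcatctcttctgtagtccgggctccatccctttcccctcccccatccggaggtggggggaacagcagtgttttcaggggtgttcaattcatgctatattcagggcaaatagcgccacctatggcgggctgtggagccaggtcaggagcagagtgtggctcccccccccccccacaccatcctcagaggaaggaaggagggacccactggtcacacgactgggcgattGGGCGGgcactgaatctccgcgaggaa
Cdkn2a, Arf start, chr4:89294570-89294869 (-), under a site: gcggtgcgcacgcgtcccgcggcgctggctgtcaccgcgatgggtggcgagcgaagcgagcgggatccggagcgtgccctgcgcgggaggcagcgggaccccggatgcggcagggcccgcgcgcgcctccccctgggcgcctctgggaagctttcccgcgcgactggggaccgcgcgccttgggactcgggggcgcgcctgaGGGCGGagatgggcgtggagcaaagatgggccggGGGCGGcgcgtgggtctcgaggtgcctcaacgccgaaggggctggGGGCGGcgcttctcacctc
Mdm4, main start, chr1:133025367-133025666 (-), under a site: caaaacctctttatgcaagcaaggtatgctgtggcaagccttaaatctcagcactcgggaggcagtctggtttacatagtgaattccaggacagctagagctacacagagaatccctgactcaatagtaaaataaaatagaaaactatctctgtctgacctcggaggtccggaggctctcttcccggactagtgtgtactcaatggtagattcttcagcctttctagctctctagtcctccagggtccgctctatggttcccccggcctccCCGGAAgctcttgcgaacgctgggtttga
Mdm4, upstream start, chr1:133030538-133030837 (-), no peak: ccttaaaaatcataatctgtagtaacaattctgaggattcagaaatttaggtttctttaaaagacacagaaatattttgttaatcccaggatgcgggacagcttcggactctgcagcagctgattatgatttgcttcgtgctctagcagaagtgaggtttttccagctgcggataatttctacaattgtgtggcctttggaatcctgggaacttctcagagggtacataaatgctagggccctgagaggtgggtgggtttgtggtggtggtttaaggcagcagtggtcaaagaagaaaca
Cdkn1a, main start, chr17:29093519-29093818 (+), under a site: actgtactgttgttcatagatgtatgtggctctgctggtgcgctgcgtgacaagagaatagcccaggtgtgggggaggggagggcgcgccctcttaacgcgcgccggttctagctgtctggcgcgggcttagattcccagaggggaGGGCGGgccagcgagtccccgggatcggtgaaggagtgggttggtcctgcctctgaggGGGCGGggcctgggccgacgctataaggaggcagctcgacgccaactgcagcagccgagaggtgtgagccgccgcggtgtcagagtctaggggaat
Cdkn1a, upstream start, chr17:29090729-29091028 (+), no peak: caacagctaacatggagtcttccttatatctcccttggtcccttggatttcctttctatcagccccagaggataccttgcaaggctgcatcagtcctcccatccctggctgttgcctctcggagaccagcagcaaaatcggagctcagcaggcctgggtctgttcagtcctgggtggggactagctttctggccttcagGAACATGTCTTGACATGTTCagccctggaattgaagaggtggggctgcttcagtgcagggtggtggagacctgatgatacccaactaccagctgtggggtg

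The unfiltered lists held 23 peaks at the 10 genes in replicate 1, covering 49.4 kb, and 31 in replicate 2, covering 58.0 kb, and 0 in each control. In either FOXR2 P53LoF replicate, 15 of these peaks passed the filter, and none was removed for overlapping a control peak. By position, 10 peaks of each replicate were at a promoter of the gene itself. Intronic peaks away from starts numbered 1 in replicate 1 and 4 in replicate 2, all of them in Cdkn2a, and none passed the filter. Upstream peaks numbered 7 and 10, downstream peaks 4 and 6, and 1 peak of each list lay at the promoter of a neighbouring gene, Ftl1. The filtered peaks formed 14 reproducible sites, of which 9 were at promoters of the genes themselves, 1 was at the promoter of Ftl1 and 4 were upstream.

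**Figure D1:**
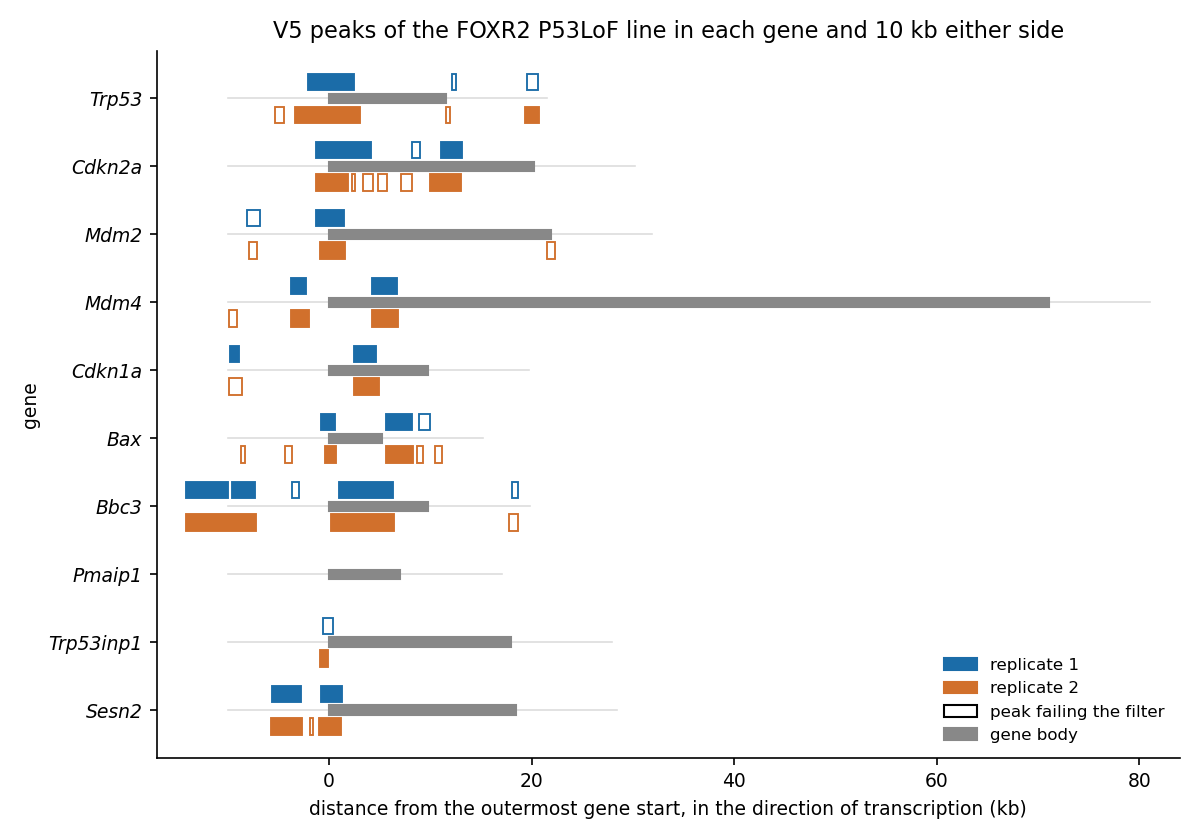
Peaks of the FOXR2 P53LoF replicates at the 10 genes, by distance in kb from the outermost annotated gene start in the direction of transcription (x axis), 1 gene per row. Filled boxes passed the filter, open boxes failed it, grey bars are gene bodies and thin lines the 10 kb on either side. Peaks of both replicates gather at a start in 9 of the 10 rows, and the row of Pmaip1 is empty.

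Trp53 carried the highest fold of the 10 genes. Its site, chr11:69578263-69582830, spanned 4568 bp and had a fold of 31.4 in replicate 1 (24.6 to 39.5, 70 fragments) and of 41.1 in replicate 2 (34.2 to 48.9, 124 fragments). Both replicates were high, and their intervals overlapped. The summits lay at 436 bp and 72 bp from the nearest of the 2 annotated starts (chr11:69580359 and 69580405), in an intron and in an untranslated exon. Of 7807 promoter sites, 75 had a higher lower fold, which puts Trp53 at percentile 99.0. Promoter sites of chromosome 11 had a median lower fold of 11.5, above the 9.72 of all promoter sites. Within that chromosome the Trp53 site was at percentile 97.6, and after each fold was divided by the median of its chromosome it was at percentile 98.0, both comparisons being chosen after the data were seen. The length of the site was at percentile 97.0 of promoter sites.

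The Trp53 site is not the promoter of Trp53 alone. Wrap53, transcribed from the opposite strand and encoding a telomerase and Cajal body protein whose antisense transcripts regulate p53 RNA, starts 104 bp from the Trp53 start, and the same site covers its promoter. Peaks at a shared promoter cannot be assigned to either gene. The remaining peaks in the Trp53 region were lower. A peak about 20 kb past the start, beyond the 3′ end, had a fold of 5.30 in replicate 1, which failed the filter, and of 6.90 in replicate 2, which passed it. Others near the 3′ end had folds of 4.86 and 3.61, and an upstream peak of replicate 2 had a fold of 5.26. The locus is also the one targeted by the guide RNA in this line, and where the edit lies relative to the site was not analysed here.

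Cdkn2a encodes 2 unrelated proteins from separate first exons, the Cdk4/6 inhibitor p16Ink4a and the Mdm2 inhibitor Arf, and each start had a site of its own. At the p16Ink4a start (transcript Cdkn2a-201, chr4:89282192), the site chr4:89281631-89283565 had a fold of 7.95 in replicate 1 (4.82 to 12.5, 17 fragments) and of 15.1 in replicate 2 (11.1 to 20.1, 45 fragments). At the Arf start (Cdkn2a-202, chr4:89294653), the site chr4:89292818-89295903 had folds of 9.72 (6.19 to 14.6) and 11.8 (8.34 to 16.3). The order of the starts was thus not the same in the replicates, with Arf above p16Ink4a in replicate 1 and below it in replicate 2, and the intervals overlapped in both. The ratio of replicate 2 to replicate 1 at p16Ink4a, 1.90, was the largest among the promoter sites of the 10 genes. The p16Ink4a start lies inside the Arf transcription unit, so this promoter site is at the same time intronic to the longer transcript. Between the starts, the intron carried a peak of fold 4.42 in replicate 1 and 4 peaks with folds of 3.29 to 4.27 in replicate 2, all below the filter.

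Mdm2, the ubiquitin ligase for p53, had 1 site at its start, chr10:117709316-117711670. The fold was 8.39 in replicate 1 (5.16 to 13.0, 18 fragments) and 10.8 in replicate 2 (7.52 to 15.2, 32 fragments). The summits were 20 bp apart, at 182 bp and 202 bp past the start, in an untranslated exon. Weaker peaks of fold 5.30 and 4.27 lay about 7 kb upstream in the 2 replicates and failed the filter. Mdm2 was at percentile 35.3 of promoter sites.

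Mdm4 had a promoter site and a site upstream. The site chr1:133023852-133026297 covered 4 annotated starts between 133025338 and 133025416, with a fold of 13.3 in replicate 1 (9.02 to 18.8, 29 fragments) and of 15.4 in replicate 2 (11.4 to 20.5, 46 fragments), at percentile 75.8 of promoter sites. The start of a further transcript at chr1:133030561 had no peak in either list. A second site, chr1:133032881-133034293, lay 2.32 kb upstream of that start, with folds of 7.95 (4.82 to 12.5) and 10.2 (6.98 to 14.4). The promoter site was above the upstream site in both replicates, with overlapping intervals. The 71078 bp gene body held no other peak.

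Cdkn1a encodes p21, the Cdk inhibitor through which p53 arrests the cell cycle. Its site, chr17:29093465-29095586, covered the starts of Cdkn1a-201 and Cdkn1a-205 (chr17:29093769 and 29093781) with a fold of 7.95 in replicate 1 (4.82 to 12.5, 17 fragments) and of 7.88 in replicate 2 (5.12 to 11.7, 23 fragments). It was at percentile 26.8 of promoter sites, and its summits lay 924 bp apart. Neither the upstream start of Cdkn1a-202 (chr17:29090979) nor the downstream start of Cdkn1a-203 (chr17:29097900) had a peak within 1 kb in either list. A peak about 9 kb upstream had a fold of 7.51 in replicate 1, which passed the filter, and of 5.26 in replicate 2, which did not. Its edge was 2033 bp and 1896 bp from the start of Trp53cor1 (lincRNA-p21), a p53-induced noncoding RNA that was looked up after these peaks were seen.

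Of the apoptotic targets, Bax and Bbc3 had promoter sites and Pmaip1 had none. Bax, the pore-forming protein of the mitochondrial outer membrane, had a promoter site whose intervals overlapped those of Cdkn1a in both replicates. The site chr7:45466350-45467342 had a fold of 6.63 in replicate 1 (3.82 to 10.8, 14 fragments) and of 7.23 in replicate 2 (4.60 to 10.9, 21 fragments), close to the minimum of 6 in both, and was at percentile 10.6 of promoter sites. At 993 bp it was short, at percentile 8.94 of their lengths. Just past the 3′ end of Bax, a second site, chr7:45458720-45461267, had folds of 9.72 and 10.8 and covered the promoter of Ftl1, the ferritin light chain gene.

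Bbc3 encodes Puma, a BH3-only protein that inactivates antiapoptotic Bcl-2 family members. Its promoter site, chr7:16309324-16314684, was the longest of the 10 genes at 5361 bp, with folds of 11.9 (7.95 to 17.3, 26 fragments) and 12.5 (8.89 to 17.1, 37 fragments). Upstream of the gene, the site chr7:16294295-16298440 had folds of 19.9 (14.6 to 26.5, 44 fragments) and 19.1 (14.5 to 24.6, 57 fragments), above the promoter by a ratio of 1.67 in replicate 1 and 1.53 in replicate 2, although the intervals of the 2 sites overlapped in each replicate. It was at percentile 97.4 of the sites away from starts. Only its last 48 bp fell within 10 kb of Bbc3, and the closest protein-coding start, 7.5 kb away, belonged to another gene, Ccdc9, named after its position was seen. An adjoining site, chr7:16298843-16301083, rested on a separate peak of fold 6.19 in replicate 1 (13 fragments) and on the same 6975 bp peak of replicate 2, so these sites are not independent there.

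Pmaip1 encodes Noxa, another BH3-only protein. None of its 3 annotated starts (chr18:66458533, 66458575 and 66458593) had a peak, and none lay in the gene or its flanks of 10 kb. The closest peak was 54.3 kb away in replicate 1 (fold 3.09) and 170 kb away in replicate 2 (fold 3.61), and neither reached the minimum fold. A list of peaks does not give the signal below the calling threshold, so a lower level of binding at Pmaip1 could not be seen.

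Trp53inp1, which promotes p53 phosphorylation and autophagy, had promoter peaks at its start (chr4:11156431) that fell on either side of the minimum fold. The fold was 5.30 in replicate 1 (2.87 to 9.14, 11 fragments), below it, and 7.56 in replicate 2 (4.86 to 11.3, 22 fragments), above it. The intervals overlapped, and the 2 peaks shared 466 bp.

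Sesn2, a stress-induced inhibitor of mTORC1, had a promoter site and a site upstream. At the promoter, chr4:132509360-132511279, the fold was 10.2 in replicate 1 (6.53 to 15.2, 22 fragments) and 12.2 in replicate 2 (8.61 to 16.7, 36 fragments), with summits 3 bp apart in a coding exon. At the upstream site, chr4:132513249-132516144, whose nearer edge was 2.75 kb before the start, the fold was 18.6 (13.4 to 25.0, 41 fragments) and 17.1 (12.8 to 22.4, 51 fragments). The upstream site was the higher in both replicates, by ratios of 1.83 and 1.41, with overlapping intervals. It was at percentile 95.8 of sites away from starts and at 98.6 among those of its chromosome.

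**Figure D2:**
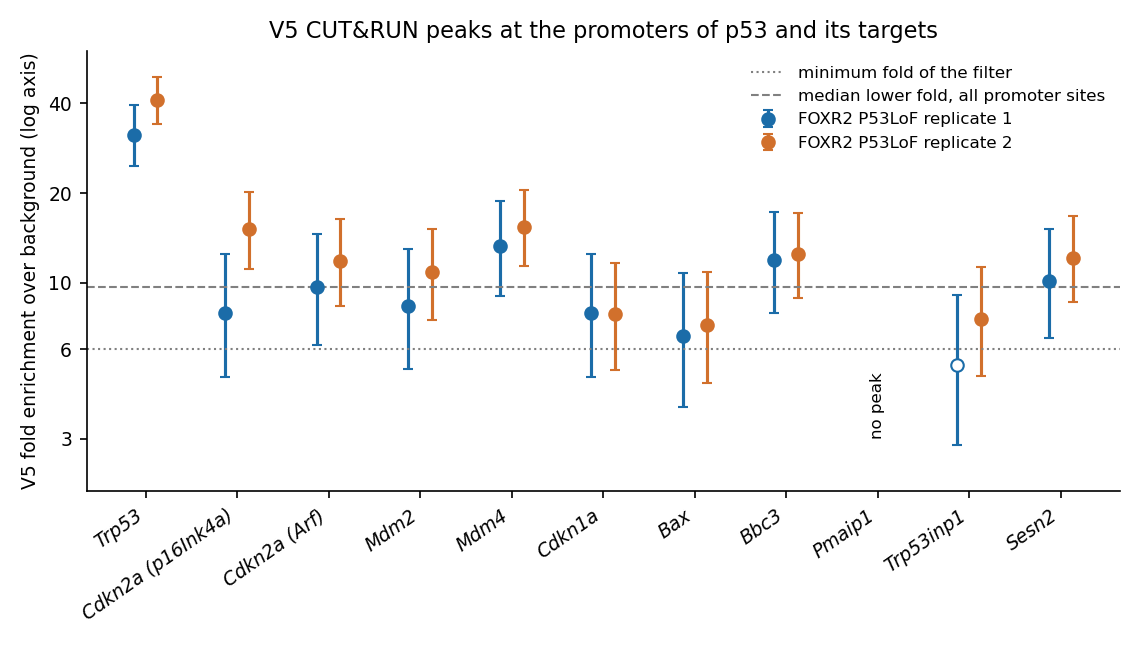
Fold enrichment over background (log axis) of the promoter peaks of each gene in the 2 FOXR2 P53LoF replicates, with exact Poisson 95% intervals of the summit fragments. The open point failed the filter. Trp53, at 31.4 and 41.1, stands above every other promoter in both replicates, and the others lie between 5.30 and 15.4.

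By the lower fold of the strongest promoter site, the order of the genes was Trp53 (31.4), Mdm4 (13.3), Bbc3 (11.9), Sesn2 (10.2), Cdkn2a (9.72), Mdm2 (8.39), Cdkn1a (7.88) and Bax (6.63). The counting intervals of Trp53 and Mdm4 were apart in both replicates. All other neighbours in this order had overlapping intervals in both replicates and cannot be ranked. On the log2 scale over the 2 replicates, the genes closest to Trp53 were Mdm4, Bbc3 and Sesn2, at distances of 1.88, 2.21 and 2.39. They are the next genes in this order, because Trp53 was highest in both replicates, and the distances show no likeness to Trp53 beyond it. The median lower fold of the 9 promoter sites was 9.72, the same as that of all promoter sites, and apart from Trp53 they lay between percentiles 10.6 and 75.8.

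**Figure D3:**
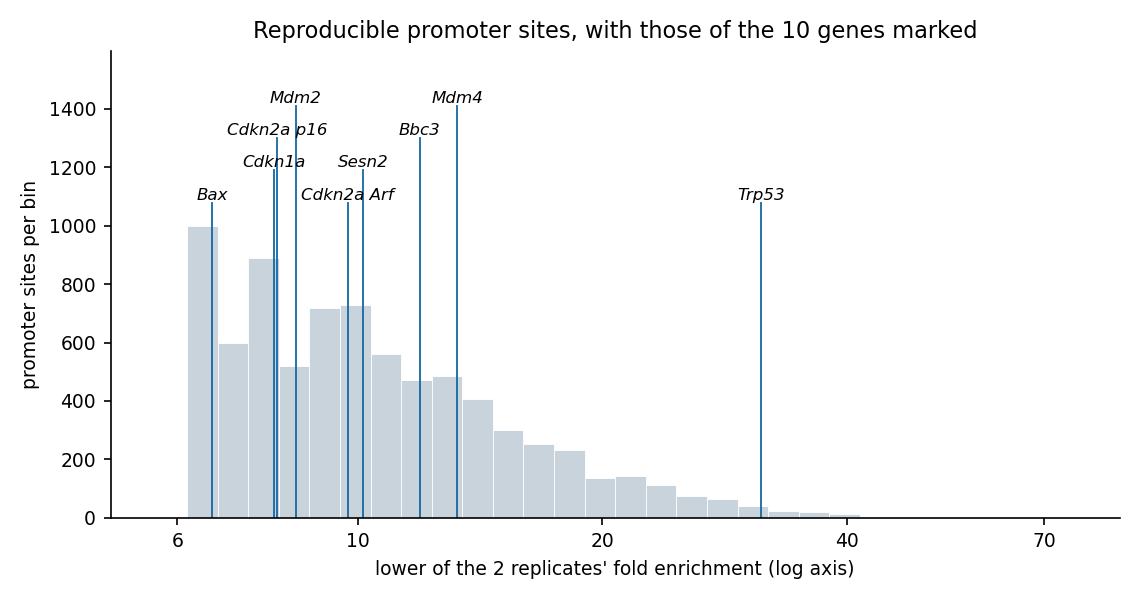
Number of reproducible promoter sites (y axis) in bins of the lower of the 2 replicates' folds (x axis, log axis), with the 9 promoter sites of the 10 genes as vertical lines, whose heights carry no value. Bax at 6.63 is near the lower end, Trp53 at 31.4 is in the upper tail, and the other lines fall between 7.88 and 13.3.

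Replicate 2 had the higher fold at 8 of the 9 promoter sites, with Cdkn1a as the exception. The ratio of replicate 2 to replicate 1 ranged from 0.991 at Cdkn1a to 1.90 at the p16Ink4a start, with a median of 1.20. Over all promoter sites, 74.5% were higher in replicate 2 and the median ratio was 1.15. The strongest upstream sites of Bbc3 and Sesn2 went the other way, with ratios of 0.958 and 0.921.

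RefSeq promoters were matched by symbol for 8 of the 10 genes (13 promoters), and Pmaip1 and Trp53inp1 were not matched. CpG density was expressed as the observed over the expected number of CpG dinucleotides. Over 20150 promoters of protein-coding genes, its median was 0.823 where a site overlapped the promoter and 0.314 where none did. The bare starts printed above were low, at 0.306 for Mdm4 and 0.0892 for Cdkn1a, whereas the occupied start of Cdkn1a had 0.786. Occupied promoters were not all CpG-rich. Trp53 had a ratio of 0.494 (percentile 43.7 of all promoters), the occupied Mdm4 start 0.489 and the p16Ink4a start 0.442, against 1.04 at the Arf start and 1.12 at Mdm2. These ratios are of the RefSeq windows, which need not be centred on the peak. In the 300 bases around the replicate 1 summit, the ratio was 0.589 at Trp53, 0.744 at the Mdm4 promoter and 0.455 at p16Ink4a.

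Of the motifs, the GC box was found in 9 of the 13 promoters and in 6 of the 8 genes, against 47.8% of all promoters and 70.3% of those under a site. The ETS motif was found in 2 (Mdm2 and Mdm4), against 19.2% of all promoters and 33.1% of those under a site. The forkhead motif was found in 2 (Mdm2 and Bbc3), against 2.96% of all promoters and 2.40% of those under a site. The E-box was found in 3 (Trp53, Bax and Bbc3), against 8.03% and 11.3%. In windows of 300 bases around the replicate 1 summits, the ETS motif occurred in 2 of the 14 sites, at Trp53 and at the Mdm4 promoter, against 15.4% of all sites. The forkhead motif occurred in 0 of the 14 windows, against 3.18% of all sites, the GC box in 7, against 37.0%, and the E-box in 4, against 8.06%. The ETS match at Trp53 lies in the summit window and not in the promoter printed above.

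The p53 response element, searched with 1 mismatch, was present 7 times in the 393 kb of the 10 gene regions, at Mdm2 (3), Mdm4 (3, of which 2 overlap) and Cdkn1a (1). None of the 7 lay inside a reproducible site, and sites covered 8.64% of these regions. At that coverage, 7 elements are too few to show whether sites and elements lie apart. Decamers separated by other bases were not searched for. The Cdkn1a element, the capitals in the upstream sequence above, was centred at -42 bp from the start of Cdkn1a-202. That start had no peak, and the nearest site began more than 2 kb downstream. The same element was found in 0.0546% of all promoters (11 of 20150). An Mdm2 element about 7 kb upstream lay under a replicate 1 peak of fold 5.30 that failed the filter and under no replicate 2 peak. A stretch without a match says only that these letters were not found in it.

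The wider pathway was examined through lists of 32 further p53 target genes and 19 regulators of p53, of which Cop1, Ppm1d and Rchy1 are in both. These lists too were chosen with earlier results of these data known. Among the targets, 22 of 32 had a promoter site, against the 39.2% of all genes given above. At a minimum fold of 10 it was 13 of 32, against 19.7%. The median lower fold of the 22 was 11.3. The highest were Ckap2, a spindle protein (17.2 and 21.7 in replicates 1 and 2), Sesn1, the paralog of Sesn2 (15.5 and 21.4), and Xpc, which recognises damaged DNA in nucleotide excision repair (15.0 and 15.4). Sesn1 and Xpc share their sites with the starts of Cep57l1 and Lsm3. The target genes with no peak, 3 of 32 against 30.7% of all genes, were Eda2r, Perp and Tnfrsf10b. They encode a TNF receptor family member, an apoptosis-associated membrane protein and a death receptor.

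Among the regulators, 17 of 19 had a promoter site, against 39.2% of all genes. At a minimum fold of 10 it was 10 of 19, against 19.7%. The median lower fold of the 17 was 10.8. The highest were Wrap53, through the site it shares with Trp53 (31.4 and 41.1), the acetyltransferase Kat5 (16.3 and 15.1) and Rpl11, a ribosomal protein that inhibits Mdm2 (15.0 and 19.4). The p53 relatives were the exceptions. Trp63 had no peak, and Trp73, named after its values were seen, had 1 peak in each replicate and no reproducible site. Neither list had a peak in a V5 control. All genes with a promoter site had a median lower fold of 10.2, so the medians of both lists were near it. Outside the site shared by Trp53 and Wrap53, the highest lower fold of a promoter site in any of the 3 lists was 17.2.

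**Figure D4:**
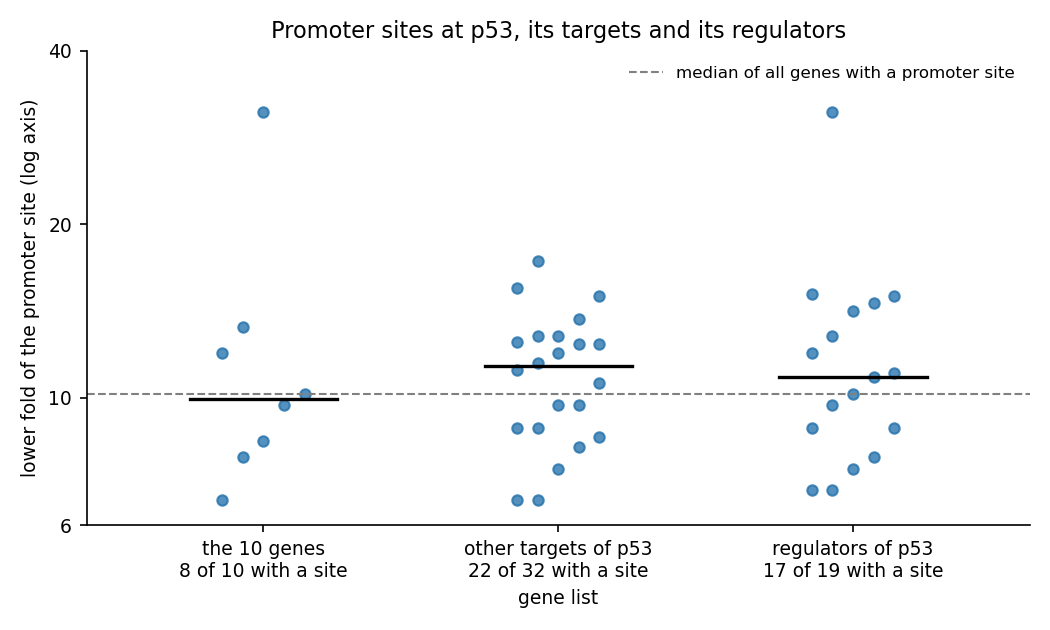
Lower fold of the promoter site (log axis) of each gene with one, in the 10 genes, the 32 further targets of p53 and the 19 regulators, with the median of each list as a black bar and that of all genes with a promoter site as a dashed line. The medians of 9.94, 11.3 and 10.8 lie near the dashed line at 10.2, and the uppermost point of the 10 genes and of the regulators is the same site.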

How the data were processed

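V5 CUT&RUN peaks were available for 2 FOXR2 P53LoF and 2 V5 control replicates, grouped by genotype label. The authors trimmed reads with Trimmomatic 0.39, aligned them to mm10 with BWA 0.7.17, removed duplicates with Picard 2.26.6 and called peaks per library with MACS2 2.2.7.1 (GenPipes). The deposited fold enrichment is a ratio to the library background. MACS2 also gave the deposited −log10 of each p and q value, and the deposited score, which is 10 times the −log10 q. No read totals are listed, so depth is known only as summit fragments.

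The filter of the methods was applied to each FOXR2 P53LoF list (control overlap of at least 10 bp, −log10 q of 6 or less, fold of 6 or less, length of at least 10000 bp). The methods also keep only regions open in snATAC-seq of the same model, and that step was not used here. Reproducible sites are stretches shared by at least 1 bp. A promoter site overlaps the 1 kb on either side of a gene's own protein-coding transcript start. The background of each library was searched from 0.3 to 4 in steps of 0.0005, requiring whole fragments (within 0.02) with matching Poisson p, and all folds up to 30 met this (100% in each library). Site building and background recovery were tested on simulated data. Python 3.11.15, numpy 2.4.6 and scipy 1.17.1 were used with GENCODE M21 on GRCm38 (patch p6). Promoter sequences are from RefSeq.

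Counts over the 10 genes are descriptions, beside the share of all protein-coding genes. The genes and lists were chosen with earlier results of these data known. Named genes are all 10, coding genes whose start lies within 1 kb of their sites, the 3 highest genes of each wider list and the first 3 in alphabetical order without a peak, and Foxr2. Trp53cor1, Ccdc9 and Trp73 fall outside this rule and were named after their values or positions were seen, and Cop1, Ppm1d and Rchy1 are named only as members of both lists. Alternatives covered the filter, the overlap, the gene and promoter windows and each replicate.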

Additional observations from a re-analysis of the deposited data

How the results depend on the processing

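Of 95 values recomputed under 15 alternatives, 81 stayed within 1.5 times the reported count or, for the median fold, within the SD of 1.72 between the replicates' medians, and 14 did not. No gene of the 10 or of the wider lists had a V5 control peak, and no peak at the 10 genes exceeded 6975 bp. The settings on control peaks and on the length limit could therefore change little, and their part of the 81 is no sign of stability. A minimum fold of 10 left 4 genes with a reproducible site (against 27.8% of all genes) and the same 4 with a promoter site (Trp53, Mdm4, Bbc3 and Sesn2, against 19.7%), 6 sites at the 10 genes, a median lower fold of 12.6, 13 of the further targets and 10 of the regulators. Without a minimum on fold or q, 23 sites remained at the 10 genes, and 1 gene, Cdkn2a, had an intronic site, against 14.5% of all genes. Counting only the 5′-most start of each gene turned sites of 3 genes into intronic ones (Cdkn2a, Mdm4 and Cdkn1a, against 7.32% of all genes), because covered starts of these genes lie inside a longer transcript, and left 6 genes with a promoter site, without Mdm4 and Cdkn1a, against 37.2%. With gene bodies only, the 10 genes had 9 sites and 26 peaks in the 2 FOXR2 P53LoF lists together (against 54), and with 50 kb on either side 28 sites and 119 peaks. Leaving out a FOXR2 P53LoF or V5 control replicate gave a median fold of 9.72 to 12.0, 8 to 9 genes with a site (50.1% to 55.1% of all genes) and 8 to 9 with a promoter site (39.2% to 43.5%), the ninth being Trp53inp1 without FOXR2 P53LoF replicate 1, where the shares of all genes were highest. Without a FOXR2 P53LoF replicate, this median is of the remaining replicate's own folds and is not a lower fold. A minimum −log10 q of 10 removed the Bax promoter site, leaving 7 genes with one, against 33.5% of all genes. No paired analysis was possible because the results are counts and folds of called peaks and come from no test. The folds of the reproducible sites at the 10 genes rest on 13 to 124 fragments, which limits the order of all genes but Trp53.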
